A study of Rattus norvegicus with 24 samples.

Results

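The amygdala of high-responder rats was compared with that of low-responder rats in 12 of the 24 libraries of the series, which were those labelled amygdala. There were 6 libraries from the high-responder line and 6 from the low-responder line. The lines were obtained by breeding rats selectively for a strong or a weak response to novelty. All animals were 60 days old, the labels name no treatment, and neither sex nor generation is given in them. The remaining 12 libraries came from the dorsal raphe of the same lines and are used here as context. Each line is a single breeding population, so a difference between the lines belongs to these populations and cannot be told apart from their other inherited differences. The labels do not say whether the 6 libraries of a line came from 6 rats, so every p-value rests on how much these libraries varied, and some of that variation may be technical.

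The amygdala is a group of nuclei in the temporal forebrain that links sensory input to fear, anxiety and reward behaviour. Its basolateral part holds mainly glutamate neurons and its central part mainly GABA neurons, with peptides such as corticotropin-releasing hormone among their signals. Rats that explore a new place strongly and rats that avoid doing so have been widely used as models of sensation seeking and of anxiety-like behaviour. The comparison of the lines asks which transcripts differ in this tissue between rats bred for these opposite responses.

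The deposited tables give Ensembl gene IDs without symbols, and 0 of their 32662 IDs were found in the RefSeq tables used here. Genes are therefore named by ID, and what they encode is not given. No promoter or protein sequence could be tied to an ID. The tissue label could not be checked against marker genes for the same reason. Instead the dorsal raphe served as a reference. The 452 IDs that were more than 4-fold higher in amygdala than in dorsal raphe took 3.97% to 4.74% of the counts in the high-responder and 4.17% to 5.06% in the low-responder amygdala libraries, against 0.536% to 0.704% in the dorsal raphe libraries. The 398 IDs more than 4-fold higher in dorsal raphe took 0.391% to 0.727% in high-responder and 0.391% to 0.645% in low-responder amygdala, against 2.54% to 3.73% in dorsal raphe. The IDs were chosen on these libraries, so these shares are a description. All 12 libraries labelled amygdala lay on the amygdala side in both measures. The median share of the amygdala-high IDs was 4.20% in the high-responder and 4.88% in the low-responder line, and that of the raphe-high IDs 0.639% and 0.459%. Which cells or nuclei each sample held was not measured, and the part of these shares in the line differences was not tested. In such bulk samples, fewer cells of a type and less RNA per cell cannot be told apart.

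Library totals were 10333764 to 20194601 counts in the high-responder line, with a median of 10938358, and 11509385 to 13938794 in the low-responder line, with a median of 12515636. At least 1 count was found for 18455 to 19633 and 18604 to 19164 IDs. The first principal component of log2 CPM (CPM are counts scaled to a common library size with edgeR's TMM factors) held 30.7% of the variance and did not separate the lines. High-responder libraries ran from -24.3 to 25.8 on it and low-responder libraries from -49.4 to 23.0. Low-responder library 3 lay at the lower end, high-responder library 2 at the upper end, and high-responder library 3 was second lowest at -24.3. The libraries numbered 3 of both lines also had the smallest shares of counts in their 10 most counted IDs, 3.80% in the low-responder and 3.60% in the high-responder one, while the others held 5.96% to 7.93%. The third component held 11.6% of the variance. High-responder libraries ran from -2.75 to 20.6 on it and low-responder libraries from -15.8 to -2.56, so the lines overlapped there only between library 6 of each line.

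**Figure D1:**
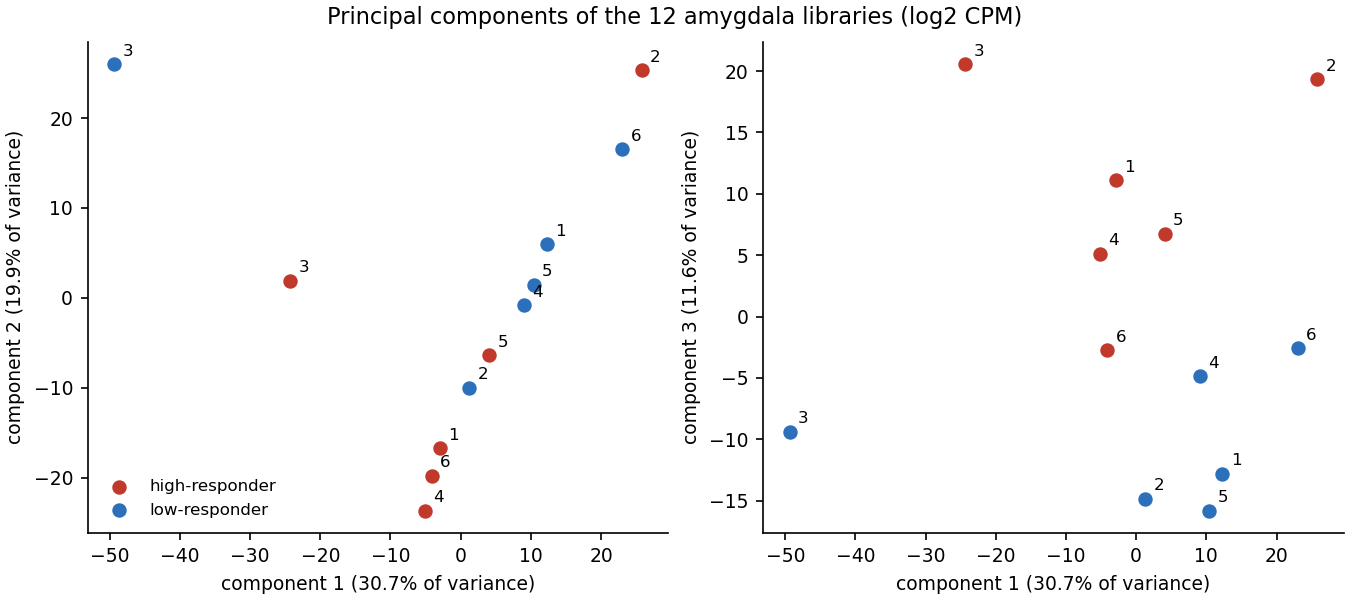
Scores of the 12 amygdala libraries on principal components 1 and 2 (left) and 1 and 3 (right), 1 point per library with its number, red for high-responder and blue for low-responder rats. Low-responder library 3 stands apart at -49.4 on component 1, and the lines part almost fully along component 3, which holds 11.6% of the variance.

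The spread within a line was similar in both. Across the genes tested, the median standard deviation of log2 CPM was 0.19 in the high-responder and 0.20 in the low-responder libraries. It was larger in the high-responder line for 6659 genes (46.7%) and in the low-responder line for 7606. A single library weighed heavily on the low-responder value. Without low-responder library 3 the median fell to 0.13, while leaving out any other low-responder library gave 0.20 to 0.21. In the high-responder line it was 0.17 without library 2 or library 3 and 0.18 to 0.20 without any other.

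Of 14265 genes tested across the 12 libraries, 3 passed an adjusted p of 0.05 with edgeR's quasi-likelihood test, 0.021% of those tested. All 3 were lower in high-responder rats. With edgeR 0 were higher, although 573 genes were higher and 616 lower at an unadjusted p under 0.05, together 8.3% of those tested. For each of the 3, every high-responder library lay below every low-responder library.

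ENSRNOG00000017412 had the largest fitted line difference of all genes tested. In high-responder amygdala its level was lowest at 0.0796 CPM, with a median of 0.167 and a highest value of 0.389 CPM, and in low-responder amygdala it was 1.5, 2.25 and 2.90 CPM. The groups were far apart: the lowest low-responder library was well above the highest high-responder one. These levels rested on 14 counts over the 6 high-responder libraries and 167 over the 6 low-responder libraries, which makes the high-responder level itself imprecise. The mean was 0.195 ± 0.117 against 2.21 ± 0.628 CPM (SD, n = 6 each), and the gene was 11.3-fold lower in high-responder rats, with a log2 fold change of -3.49 (SE 0.33, 95% interval -4.19 to -2.79, edgeR adjusted p = 0.000462). Its call held whichever of the 12 libraries was left out, at -3.76 to -3.34. It did not pass in libraries 1 to 4 of each line alone, where the log2 fold change was -3.28 and the edgeR adjusted p = 0.0739, the highest of the 25 alternatives, which began at 2.87e-10.

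ENSRNOG00000025728 was the second. Its level in high-responder amygdala was 0.764 CPM at the lowest, 1.23 at the median and 1.36 at the highest, against 1.93, 3.04 and 3.58 CPM in low-responder amygdala. The groups did not overlap, and low-responder library 5, the lowest of its line, came closest to the high-responder values. The means were 1.15 ± 0.246 and 2.91 ± 0.636 CPM (SD, n = 6 each), from 88 and 220 counts. The gene was 2.51-fold lower in high-responder rats, with a log2 fold change of -1.32 (SE 0.20, 95% interval -1.75 to -0.90, edgeR adjusted p = 0.0495). The size of the difference was steadier than its call: log2 fold changes ran from -1.41 to -1.22 over 25 alternatives, but the gene passed in 8 of them, with adjusted p values of 0.000158 to 0.273. Leaving out any library other than high-responder 2 and low-responder 3 and 5 ended the call.

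The last of the called genes had many counts and differed by much less. Its level was 64.8 CPM at the lowest, 71.3 at the median and 78.6 at the highest in high-responder amygdala, and 83.9, 97.6 and 101.4 CPM in low-responder amygdala. The nearest libraries of the 2 lines were low-responder library 4 and high-responder library 5. The means of 71.6 ± 4.53 and 95.4 ± 6.25 CPM (SD, n = 6 each) gave a log2 fold change of -0.41 (SE 0.06, 95% interval -0.55 to -0.28, edgeR adjusted p = 0.0495), a level 1.33-fold lower in high-responder rats. With 5366 and 7158 counts behind it, counting error was small. It ranked 733 of the 14265 genes by the size of its log2 fold change, and it passed in 8 of the 25 alternatives, with adjusted p values of 3.84e-06 to 0.99998 and log2 fold changes of -0.45 to -0.37. Leaving out any library other than high-responder 2 and low-responder 3 and 4 ended its call too.

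With no gene called higher in high-responder rats, the 2 genes with the largest fold change among those higher in all 6 high-responder libraries, at a mean of at least 1 CPM, are given by their values. Their non-overlap was fixed by this choice, and their fold changes and intervals lean towards a difference. ENSRNOG00000011992 stood at 6.41 CPM at the lowest, 7.24 at the median and 9.42 at the highest in high-responder amygdala, against 1.84, 2.97 and 5.74 CPM in low-responder amygdala. The low-responder values were wide, and low-responder library 4 came near the high-responder range. The means were 7.45 ± 1.11 and 3.36 ± 1.55 CPM (SD, n = 6 each). The fitted log2 fold change was 1.14 (SE 0.24, 95% interval 0.62 to 1.66), which did not pass (edgeR adjusted p = 0.161). DESeq2 and limma voom called it, with adjusted p values of 0.00255 and 0.0180 in a range of 0.00255 to 0.982 over 25 alternatives. It passed in 4 of the 25, and in 0 of the 12 that left out 1 library.

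ENSRNOG00000023588 ran from 2.48 to 5.00 CPM with a median of 3.27 in high-responder amygdala, and from 1.36 to 2.00 CPM with a median of 1.52 in low-responder amygdala. Here the low-responder libraries were tight and the high-responder ones spread, with library 5 the highest. The means were 3.51 ± 0.927 and 1.59 ± 0.243 CPM (SD, n = 6 each). Its fitted log2 fold change was 1.13 (SE 0.19, 95% interval 0.72 to 1.54, edgeR adjusted p = 0.0678), which did not pass either. DESeq2 called it at an adjusted p of 0.000816 and limma voom at 0.0151, within 0.000816 to 0.742 over the 25 alternatives. It passed in 3 of these, and in 0 of the 12 that left out 1 library.

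**Figure D2:**
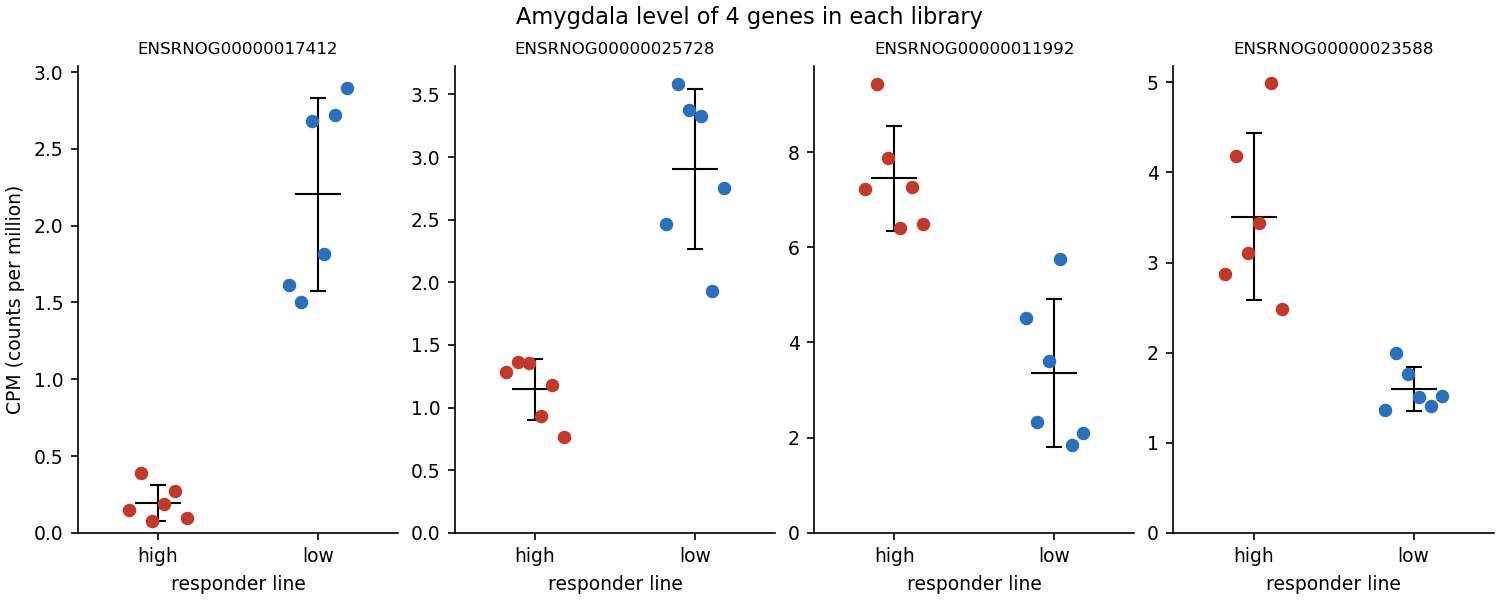
Amygdala level (CPM, linear axis from 0) of 4 genes in each library; points are libraries, the horizontal mark is the mean and the bars are 1 SD (n = 6 per line). In all 4 genes the 6 high-responder and the 6 low-responder points do not overlap. For ENSRNOG00000011992 and ENSRNOG00000023588 this was a condition of their choice. The gap is widest relative to the spread in ENSRNOG00000017412, at 0.195 against 2.21 CPM.

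Most genes differed little between the lines. The median size of the log2 fold change was 0.09, or 1.07-fold, and 95% of genes had a size of 0.42 or less, which is 1.34-fold. Differences past 1.5-fold were fitted for 145 genes that were higher and 160 that were lower in high-responder rats, 2.14% of those tested. Past 2-fold there were 34 and 33, and past 4-fold 1 and 4. Higher and lower fitted differences were thus about equally frequent, and the median log2 fold change of all genes was -0.002.

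How much of a difference the data leave room for can be read from the intervals of single genes, which are not adjusted for the number of genes. The 95% interval lay within 2-fold in either direction for 13572 genes (95.1%), within 1.5-fold for 11269 (79.0%) and within 1.2-fold for 4101 (28.7%). This depended on the level. Among the 2308 genes with a mean of at least 100 CPM, 96.8% had an interval within 1.5-fold, and among the 7615 genes at 10 to 100 CPM 92.7% did. Of the 4075 genes at 1 to 10 CPM 48.0% did, and of the 267 genes under 1 CPM 6.74%. The fitted differences followed the same order, with a median size of 0.06 in the top group, 0.08 and 0.16 in the next groups and 0.21 in the lowest. Of the 67 genes past 2-fold, 6 had a mean under 1 CPM and 51 one of 1 to 10 CPM. Large differences in weakly expressed genes therefore came with wide intervals.

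**Figure D3:**
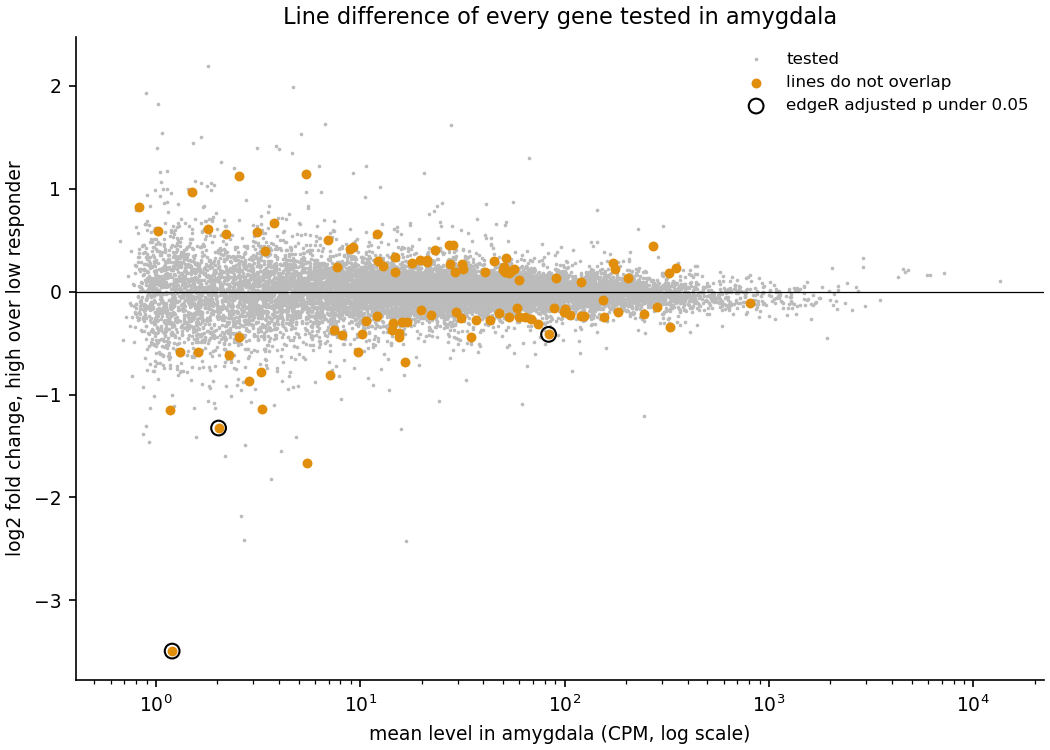
Log2 fold change of high over low responders (vertical) against the mean amygdala level (CPM, log axis) for the 14265 genes tested; orange points are the 102 genes whose lines do not overlap and circles mark the 3 genes past an edgeR adjusted p of 0.05. The cloud narrows with the level, and the 3 circled genes all lie below 0.

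The lines did not overlap in 102 genes. All 6 high-responder libraries lay above all 6 low-responder libraries in 49 of them, 0.343% of genes tested, and below in 53, 0.372%. These genes were spread over the expression range, with a median level of 25.2 CPM against 25 CPM for all genes tested. The share was 0.375% under 1 CPM, 0.687% at 1 to 10 CPM, 0.722% at 10 to 100 CPM and 0.780% from 100 CPM. Their differences were mostly small. The median size was 0.29 on the log2 scale, or 1.22-fold, and 42 of the 102 differed by less than 1.2-fold. Past 1.5-fold there were 7 higher and 12 lower genes, and past 2-fold 2 and 5. The 3 called genes were among them, and the rest did not pass, with adjusted p values up to 0.700 by edgeR. With library totals as the only scaling, 48 genes lay above and 42 below, so the larger number on the lower side, seen with TMM and with RLE factors (46 and 53), was reversed there.

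Few IDs were found throughout one line and in no library of the other. In 1 ID at least 1 count was found in each of the 6 high-responder libraries and 0 in the 6 low-responder libraries, with 13 counts in all. The reverse was found for 0 IDs. With counts in at least 3 libraries of one line and 0 in the other, there were 82 IDs seen in high-responder and 73 in low-responder rats, with at most 16 and 12 counts per ID. Of the 23212 IDs with a count in any amygdala library, 1215 had counts in the high-responder line only and 1225 in the low-responder line only. A count of 0 over a group allows up to 3 counts, so whether such an ID is absent from a line was not detectable at this depth.

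The number of genes called varied with the test and with the libraries. DESeq2 called 85 of 17028 genes (0.499%), of which 35 were higher and 50 lower in high responders. The test by limma voom with quality weights called 246 of 14265 (1.72%), 99 higher and 147 lower. Of the 14265 genes, 70 were called by both, all in the same direction in the 2 tests, 26 higher and 44 lower. These made up 82.4% of the DESeq2 and 28.5% of the limma voom calls, and their median fitted size was 0.51 on the log2 scale. The 3 edgeR calls were among them. The lines did not overlap in 32 of the 70, against 102 of all 14265 genes. Calls and non-overlap come from the same values, so this is a description. All of these tests used the same 12 libraries, so shared calls and directions are not independent evidence.

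Leaving out single libraries moved the edgeR count between 1 and 27. Without high-responder library 2 it was 27 of 14369 genes (0.188%), with 9 higher and 18 lower. Without low-responder library 3 it was 13 of 14330 (0.0907%), with 1 higher and 12 lower. Without high-responder library 1, 4, 5 or 6, or low-responder library 1 or 2, it was 1. Low-responder library 3 and high-responder library 2 are the ends of the first principal component. They were also the only libraries whose log2 CPM correlated better with the mean of the other line than with the rest of their own. The correlations were 0.975 against 0.971 for low-responder library 3 and 0.985 against 0.980 for high-responder library 2. Without both of these libraries, edgeR called 338 of 14259 genes (2.37%), 143 higher and 195 lower. This setting was chosen after the data were seen, and leaving out the libraries least like their own line favours more calls, so the count is a description. Of the 338, 190 were also called by limma voom on all libraries and 62 by DESeq2. In all of these sets there were 59 of the 14259 genes, 24 higher and 35 lower, but the sets share libraries and are not independent. Without the libraries numbered 3 of both lines, also chosen after the data were seen, 10 of 14239 genes (0.0702%) passed, 1 higher and 9 lower. Libraries 1 to 4 of each line alone gave 0 calls with edgeR. At an unadjusted p under 0.05 there were 705 of 14364 genes, about what that threshold alone gives. Libraries 5 and 6 alone, 2 per line, gave 61 calls of 14284 (0.427%), 31 higher and 30 lower. Of these 61, 1 was among the 3 genes called with all 12 libraries, and 2 were among the 102 whose lines did not overlap. High-responder library 2 and the libraries numbered 3 of both lines all fall among libraries 1 to 4. Their part in the unequal counts was not tested. These subsets follow a break in the serial numbers that the deposited files carry, and no label calls them batches. In the order of those serial numbers, the low-responder amygdala libraries took places 5 to 8, 11 and 12 of the 24, and the high-responder ones places 16 to 19, 22 and 23. What the serial numbers stand for is not stated, and an effect of that order and the line cannot be told apart.

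**Figure D4:**
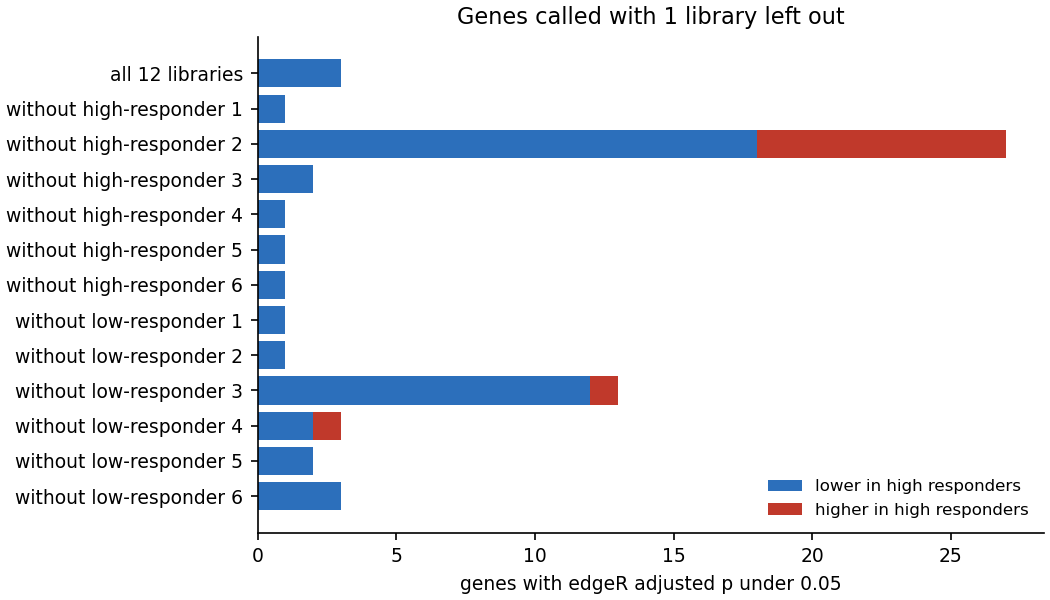
Number of genes past an edgeR adjusted p of 0.05 (bars from 0) with all 12 amygdala libraries and with each library left out, blue for genes lower and red for genes higher in high-responder rats. The count is 3 with all libraries, and it is highest without high-responder library 2, at 27, and without low-responder library 3, at 13.

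The same line difference was available in the dorsal raphe from separate libraries. Of the 102 genes whose lines did not overlap in the amygdala, 96 were tested there. The lines did not overlap in the dorsal raphe for 78 of 14390 genes (0.542%), and 0 of these were among the 102. The direction was the same in both regions for 77 of the 96 (80.2%), while over the 13820 genes tested in both it was the same for 60.8%. Of the 46 genes higher in high-responder amygdala, 38 had a positive log2 fold change in dorsal raphe, with a median of 0.09 there against 0.28 in amygdala. Of the 50 lower ones, 39 had a negative one, with a median of -0.10 against -0.28. Among the genes called by other settings, the direction was the same for 53 of 73 DESeq2 calls (72.6%), 160 of 225 limma voom calls (71.1%) and 191 of 317 of the edgeR calls without low-responder library 3 and high-responder library 2 (60.3%), a share near that of all genes. It was the same for 4 of the 10 edgeR calls made without the libraries numbered 3. In the dorsal raphe itself, 1 of the limma voom calls passed and 0 of those of the other settings. The median size there was 0.11 to 0.15 on the log2 scale. The labels do not tie an amygdala library to a dorsal raphe library of one rat, so the regions may not be independent.

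**Figure D5:**
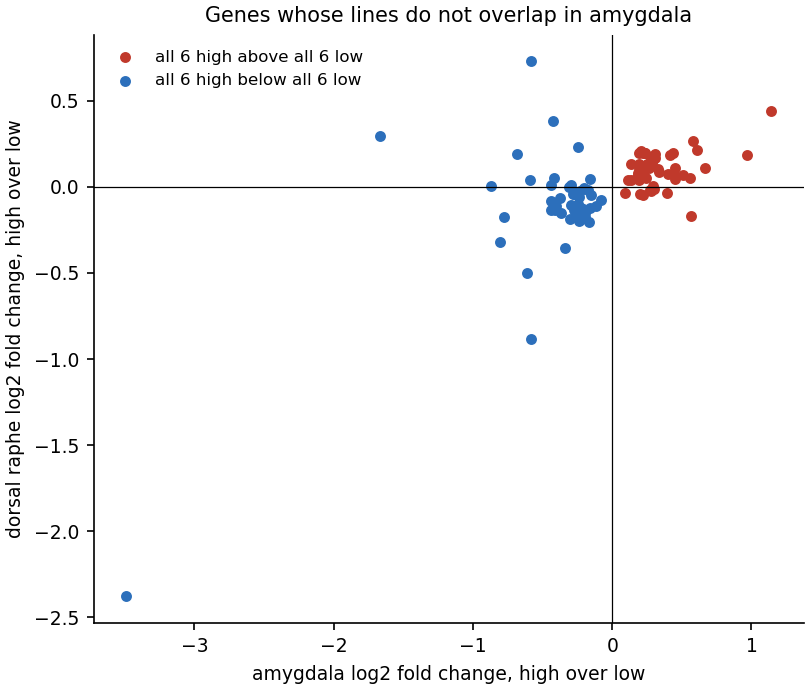
Log2 fold change of high over low responders in amygdala (horizontal) and in dorsal raphe (vertical) for the 96 genes whose lines do not overlap in amygdala and that were tested in both regions; red points are higher and blue points lower in high-responder amygdala. Of the red points 38 of 46 lie above 0 and of the blue points 39 of 50 below 0, most within a narrow band around 0 in the dorsal raphe.

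Whether a line difference differed between the regions was tested on all 24 libraries. It passed for 1 of 14977 genes (0.00668%), with 458 at an unadjusted p under 0.05, fewer than that threshold alone gives. This gene, ENSRNOG00000028041, is named because it was the only one called. In the amygdala it ran from 2.10 to 4.10 CPM in high-responder and from 1.79 to 5.14 CPM in low-responder rats. The lines overlapped widely there, with a log2 fold change of -0.20 (SE 0.23, 95% interval -0.70 to 0.30). In the dorsal raphe it ran from 0.884 to 1.79 and from 12.2 to 80.3 CPM, and the log2 fold change in amygdala minus that in dorsal raphe was 4.28 (SE 0.58, 95% interval 3.08 to 5.47, edgeR adjusted p = 0.00195). Low-responder dorsal raphe library 5 held the highest value, and without it the difference was 3.60 (edgeR adjusted p = 7.60e-06, within 6.59e-11 to 0.00745 over 31 alternatives).

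None of the genes named for the amygdala had a line by region difference that passed, with edgeR adjusted p values of 0.9999 for each and intervals that stayed wide. The genes were chosen on their amygdala difference, which is part of this contrast, so their values and intervals lean towards a difference between the regions. ENSRNOG00000017412 was low in high-responder dorsal raphe too, with a median of 0.358 CPM against 5.03 CPM in low-responder dorsal raphe. High-responder library 4, at 3.53 CPM, lay within the low-responder range of 2.60 to 6.34 CPM there. Its line difference did not pass in the dorsal raphe libraries alone, at -2.38 (SE 0.62, 95% interval -3.73 to -1.02, edgeR adjusted p = 0.539). The unadjusted edgeR p there was 0.00224, and the interval is not adjusted for the number of genes. In the fit of all libraries it was -2.37 in dorsal raphe (SE 0.48, 95% interval -3.36 to -1.37, edgeR adjusted p = 0.0636), which did not pass either. The unadjusted edgeR p of that value was 5.52e-05. In amygdala the same fit gave -3.49 (SE 0.65). The difference between the amygdala and the dorsal raphe value in that fit, -1.13, had a 95% interval of -2.85 to 0.59. Its direction was not stable: limma voom gave 0.51, and without high-responder dorsal raphe library 4 edgeR gave 0.42.

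ENSRNOG00000025728 stood at medians of 0.722 and 0.956 CPM in high-responder and low-responder dorsal raphe, on 62 and 69 counts, and the lines overlapped. It did not pass the expression filter in the dorsal raphe libraries alone and was not tested in them. In the fit of all libraries its line difference there was -0.40 (SE 0.29). The difference between the regions was -0.92, with a 95% interval of -1.71 to -0.14. At an unadjusted edgeR p of 0.0236, this difference did not pass over all genes. The last of the called genes had dorsal raphe values that overlapped, with medians of 26.0 and 26.5 CPM. Its line difference there was 0.05 (SE 0.12) in the fit of all libraries. The difference between the regions was -0.47 for it, with a 95% interval of -0.81 to -0.13. With an unadjusted edgeR p of 0.00958, it did not pass over all genes either.

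Of the genes with higher values in high-responder amygdala, ENSRNOG00000011992 had medians of 6.48 and 3.75 CPM in high-responder and low-responder dorsal raphe. The lines overlapped there, with a line difference of 0.45 (SE 0.29) in the fit of all libraries. The difference between the regions was 0.70 (95% interval -0.16 to 1.55). ENSRNOG00000023588 was hardly present in dorsal raphe, with 18 counts over the 6 high-responder and 16 over the 6 low-responder libraries. It too was not tested in the dorsal raphe libraries alone. In the fit of all libraries its line difference there was -0.05 (SE 0.51), with a 95% interval of -1.10 to 1.00. The difference between the regions was 1.17, with a 95% interval of -0.10 to 2.45 that includes 0.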

How the data were processed

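Poly-A RNA from rat amygdala and dorsal raphe was sequenced in 24 libraries, extracted with a Qiagen miRNeasy kit per the labels' protocols. Trim Galore, STAR and the build rn6 were used per the submitters' processing notes; for versions, counting program, annotation release and strand setting the sources used here give nothing. The values as deposited by the authors are raw counts per Ensembl gene ID, with 1 file per library. IDs that share reads with a near-identical copy, an overlapping gene or an antisense partner are uncertain.

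The 12 amygdala libraries, of 10333764 to 20194601 counts, entered a model in edgeR 4.0.16 (R 4.3.3; filterByExpr, TMM, glmQLFit, glmQLFTest, Benjamini-Hochberg over all genes tested). All 24 libraries were fitted as 4 groups for the line by region test. Positive values are higher in high responders. CPM were scaled within each region. Standard errors are the log2 fold change over the square root of F, and intervals are at 95%. Principal components used log2 CPM with a prior count of 2. Intervals and floors cover sampling of these libraries only, since reads lacking molecular identifiers may be copies of one molecule.

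Alternatives were RLE, no scaling factor, no low count filter, a minimum of 1 CPM in 6 libraries, limma 3.58.1 (voom, quality weights), DESeq2 1.42.0, a fold of 1.2, a block for the replicate number, library subsets and leaving out each amygdala library. Leaving out each dorsal raphe library from the line by region test was added after seeing the data. Scripts were tested on simulated data. Gene lists and cell type markers needed symbols and were not applied. The members, lists and tests were chosen with earlier results of these data known. Named are the 2 called genes with the largest fold change that were lower and, with none called higher, the 2 with the largest fold change among non-overlapping genes of at least 1 CPM, as at most 2 IDs per direction are printed.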

Additional observations from a re-analysis of the deposited data

Results flagged for a closer look

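A library stood far apart from the rest of its group in 6 of the 36 sets of 6 values looked at. Chance alone gives about 1 in 20, and some of the measures overlap. High-responder amygdala library 1 had the highest total of its line, 20194601 counts, and the most IDs with a count, 19633. Low-responder amygdala library 3 had the lowest share of counts in its 10 most counted IDs, 3.80%, and the lowest score on the first principal component, -49.4. In the dorsal raphe, ENSRNOG00000017412 stood at 3.53 CPM in high-responder library 4, and ENSRNOG00000028041 at 80.3 CPM in low-responder library 5, each far above the others of its group.

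The line difference of ENSRNOG00000028041 differed between the regions. Tested directly, the log2 fold change in amygdala minus that in dorsal raphe was 4.28, with values of 3.60 to 4.43 over 31 alternatives. These leave out each of the 24 libraries in turn among other settings, and it passed in each of them.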

How the results depend on the processing

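The amygdala count of 3 genes was 1 with RLE factors, with library totals only, without a low count filter and against a fold of 1.2, and 6 in the fit on all 24 libraries. Of these 6 of 14977 genes (0.0401%), 3 were higher and 3 lower in high responders, and 2 were among the 3 genes. The amygdala count was 85 with DESeq2, 246 with limma voom, 0 in libraries 1 to 4 and 61 in libraries 5 and 6 of each line, 1 to 27 with 1 library left out, 338 without low-responder 3 and high-responder 2, and 10 without the libraries numbered 3. With the replicate number as a block it stayed at 3, of which 1 was among the 3 genes, ENSRNOG00000017412, while ENSRNOG00000025728 had an edgeR adjusted p of 0.114 (0.000158 to 0.273 over its alternatives). Equal numbers were not shown to pair the libraries: same-numbered libraries correlated at -0.331 to 0.617 in their deviations from the line means, and 2 of 6 high-responder libraries correlated best with their own number. The line by region count of 1 was 2 with limma voom and 1 in the other alternatives, the replicate block included. The line by region difference of ENSRNOG00000017412 turned to 0.51 with limma voom. With 1 library left out it ran from -1.40 to 0.42, the last without high-responder dorsal raphe library 4, which holds this gene's highest value of its group. The cause of these shifts was not tested. The amygdala line differences of the 4 named genes kept their direction in each of the 25 alternatives. Few counts limit ENSRNOG00000017412, whose high-responder libraries held 1 to 4 counts each.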
